A study of Homo sapiens with 20 samples.

Results

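SUM44 cells that had spent 24 h in ethanol vehicle were compared with SUM44 cells taken at 0 h, before anything was added. The comparison uses 8 of the 20 arrays in the series: the 4 titled as vehicle at 24 h and the 4 titled as 0 h, both with letters A to D. SUM44 is an established line of human invasive lobular breast carcinoma, and every value comes from this 1 line. All groups had first been deprived of hormone for 3 days in charcoal-stripped serum, which lacks most steroids. The serum content is 2% in the series text and 10% in the sample text, and this was not settled. The vehicle group then received 0.01% ethanol, the solvent of estradiol, for 24 h, and the baseline group received nothing. Added ethanol, any handling when it was added, a further day in culture and a further day without hormone differ between the groups together. They cannot be told apart. For side-by-side values, the 4 arrays given 1 nM estradiol (E2) for 24 h and the 4 arrays given vehicle for 3 h were also used. The treatment field of the E2 arrays at 24 h reads baseline, but their titles and descriptions name E2, and the titles were followed. Replicates are described as biological quadruplicates.

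Estrogen receptor alpha (ESR1) is a hormone-activated transcription factor that drives the growth of luminal breast cancer cells. When estrogen is withdrawn, transcripts the receptor activates decline, those it holds down recover, and such cells usually slow at the entry to S phase. Transcripts needed late in the cycle peak in G2 and mitosis, and many of their promoters hold a CCAAT box, bound by NF-Y, near a cell cycle genes homology region (CHR), bound by the DREAM and MuvB complexes.

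Promoters of 4 cell cycle genes that were higher at 24 h are shown first, with that of MCM6, a replication gene that was lower. Each runs from 250 bases before to 50 bases after the start of the gene, in RefSeq's annotation of GRCh38.p14, and is written 5′ to 3′ on the strand of the gene. NUSAP1 lies at chr15:41332631-41332930 (plus strand), KIF23 at chr15:69414099-69414398 (plus strand), CDK1 at chr10:60778081-60778380 (plus strand), RRM2 at chr2:10122489-10122788 (plus strand) and MCM6 at chr2:135876394-135876693 (minus strand). Capitals mark the letters TTTGAA or TTTAAA of a CHR and CCAAT of a CCAAT box, or their reverse complements.
NUSAP1: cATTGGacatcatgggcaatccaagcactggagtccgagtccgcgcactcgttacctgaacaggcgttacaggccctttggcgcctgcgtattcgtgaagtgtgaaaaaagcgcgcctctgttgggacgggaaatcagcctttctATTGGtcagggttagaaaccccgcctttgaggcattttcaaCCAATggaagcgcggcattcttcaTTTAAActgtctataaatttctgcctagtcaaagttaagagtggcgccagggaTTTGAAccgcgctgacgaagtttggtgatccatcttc
KIF23: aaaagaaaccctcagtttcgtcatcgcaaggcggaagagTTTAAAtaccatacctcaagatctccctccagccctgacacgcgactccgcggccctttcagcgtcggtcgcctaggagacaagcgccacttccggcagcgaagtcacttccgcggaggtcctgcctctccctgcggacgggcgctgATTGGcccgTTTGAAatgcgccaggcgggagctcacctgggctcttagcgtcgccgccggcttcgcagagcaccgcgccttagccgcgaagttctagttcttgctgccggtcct
CDK1: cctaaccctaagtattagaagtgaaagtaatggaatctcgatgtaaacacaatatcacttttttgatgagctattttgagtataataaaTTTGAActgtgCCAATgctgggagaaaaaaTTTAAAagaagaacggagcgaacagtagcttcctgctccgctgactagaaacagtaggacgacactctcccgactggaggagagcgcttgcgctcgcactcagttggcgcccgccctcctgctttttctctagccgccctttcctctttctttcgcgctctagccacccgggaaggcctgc
RRM2: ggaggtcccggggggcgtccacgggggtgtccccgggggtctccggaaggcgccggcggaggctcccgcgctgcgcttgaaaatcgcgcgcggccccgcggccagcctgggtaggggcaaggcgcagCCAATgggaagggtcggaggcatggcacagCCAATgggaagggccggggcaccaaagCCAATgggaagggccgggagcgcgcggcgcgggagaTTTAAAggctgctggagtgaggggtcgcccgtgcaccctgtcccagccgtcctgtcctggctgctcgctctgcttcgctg
MCM6: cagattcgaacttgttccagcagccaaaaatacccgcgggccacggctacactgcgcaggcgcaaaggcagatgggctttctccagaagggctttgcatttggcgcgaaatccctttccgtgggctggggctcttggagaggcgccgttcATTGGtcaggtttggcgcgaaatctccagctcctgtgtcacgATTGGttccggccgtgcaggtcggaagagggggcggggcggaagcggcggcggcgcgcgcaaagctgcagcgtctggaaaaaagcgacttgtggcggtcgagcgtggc
The NUSAP1, KIF23 and CDK1 windows each held 2 CHR matches, and the RRM2 window held 1 CHR and 3 CCAAT matches. The MCM6 window held 2 CCAAT matches and no CHR match. Over the mitotic genes described below, 30 of 36 with a RefSeq promoter held a CHR (83.3%) and 30 held a CCAAT box (83.3%), and 26 held both (72.2%). Among the genes of S phase entry and replication, 4 of 39 held a CHR (10.3%) and 23 a CCAAT box (59%). The shares over all 27305 promoters of the table were 24.3% for the CHR and 35.7% for the CCAAT box, and over the 9563 with a measured gene they were 17.7% and 37.3%. Windows with both made up 9.49% of all promoters, 7.33% of those with a measured gene and 5.13% of the S phase and replication genes. A match is a description of letters in the window and not a bound site. Both motifs were also present in all 5 of the mitotic genes that did not pass the test, against 67.7% of the 31 that were higher. Over all 754 higher genes with a promoter, 24.4% held a CHR, 40.3% a CCAAT box and 12.5% both. Not every higher cell cycle gene resembled those shown: AURKB, TYMS and RFC3 held no CHR, and NDC80 held no CCAAT box.

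Expression was measured on Affymetrix human expression arrays and is given as log2 RMA values, with differences on the same log2 scale. Over the 8 arrays, correlations ran from 0.9985 to 0.9990 within the groups and from 0.9974 to 0.9982 between them, and the groups separated on the first principal component, which held 40.6% of the variance. Having 4 arrays per group limits the precision. Luminal markers were high. ESR1 averaged 13.56 ± 0.03 in vehicle at 24 h and 13.54 ± 0.01 at baseline (SD, n = 4 each), and GATA3, a transcription factor of luminal identity, averaged 13.63 ± 0.01 in vehicle at 24 h and 13.54 ± 0.03 at baseline. Mean levels per array over 20 luminal markers ran from 11.19 to 11.23 in vehicle at 24 h and from 11.18 to 11.19 at baseline. For 14 immune and endothelial markers they ran from 5.49 to 5.54 in vehicle at 24 h and from 5.51 to 5.54 at baseline. Means over 16 stromal markers were 6.01 to 6.05 in vehicle at 24 h and 6.02 to 6.10 at baseline, and over 6 basal markers 5.69 to 5.82 in vehicle at 24 h and 5.82 to 5.97 at baseline. The means of both groups lay below 6.11, the level of the dimmest 25% of genes and called dim here, for 9 of the immune, 10 of the stromal and 4 of the basal markers. As a measure of RNA quality, the log2 ratio of the 3′ to the 5′ probe set of ACTB was 0.397 ± 0.0316 in vehicle at 24 h and 0.466 ± 0.0101 at baseline (SD, n = 4 each; exact permutation test, two-sided p = 0.0286, the smallest the design allows). That of GAPDH was -0.117 ± 0.0318 in vehicle at 24 h and -0.124 ± 0.0137 at baseline (exact permutation p = 0.8). The part of this difference in the results was not tested.

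After 24 h in vehicle, 1426 of 11963 genes differed from baseline at an adjusted p under 0.05 (11.9%; limma, Benjamini-Hochberg). Of these, 903 were higher (7.55%) and 523 were lower (4.37%). With each array centred on its own median the split was 806 higher and 712 lower, and with quantile normalization repeated it was 839 and 743. Most differences were small. The median size among called genes was 0.19 on the log2 scale, 1036 were under 0.25, and 37 reached 1.5-fold, 29 of them higher. The median over all genes was -0.01. All 4 vehicle arrays lay to 1 side of all 4 baseline arrays for 2363 genes (19.8%). Among the called genes, 94 were dim in both groups, where the size of a change is less certain. Fewer cells of a kind and less RNA per cell cannot be told apart in such bulk samples.

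Genes of G2 and mitosis rose. Of 43 measured, 38 were higher, none was lower and 5 did not pass, against 7.55% of all genes higher, and their median difference was 0.42 against -0.01 over all genes (limma, adjusted p under 0.05). In 39 of the 43 every vehicle array lay above every baseline array, against 11.5% of all genes. The plot of list members shows this list as the one farthest to the right.

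**Figure D1:**
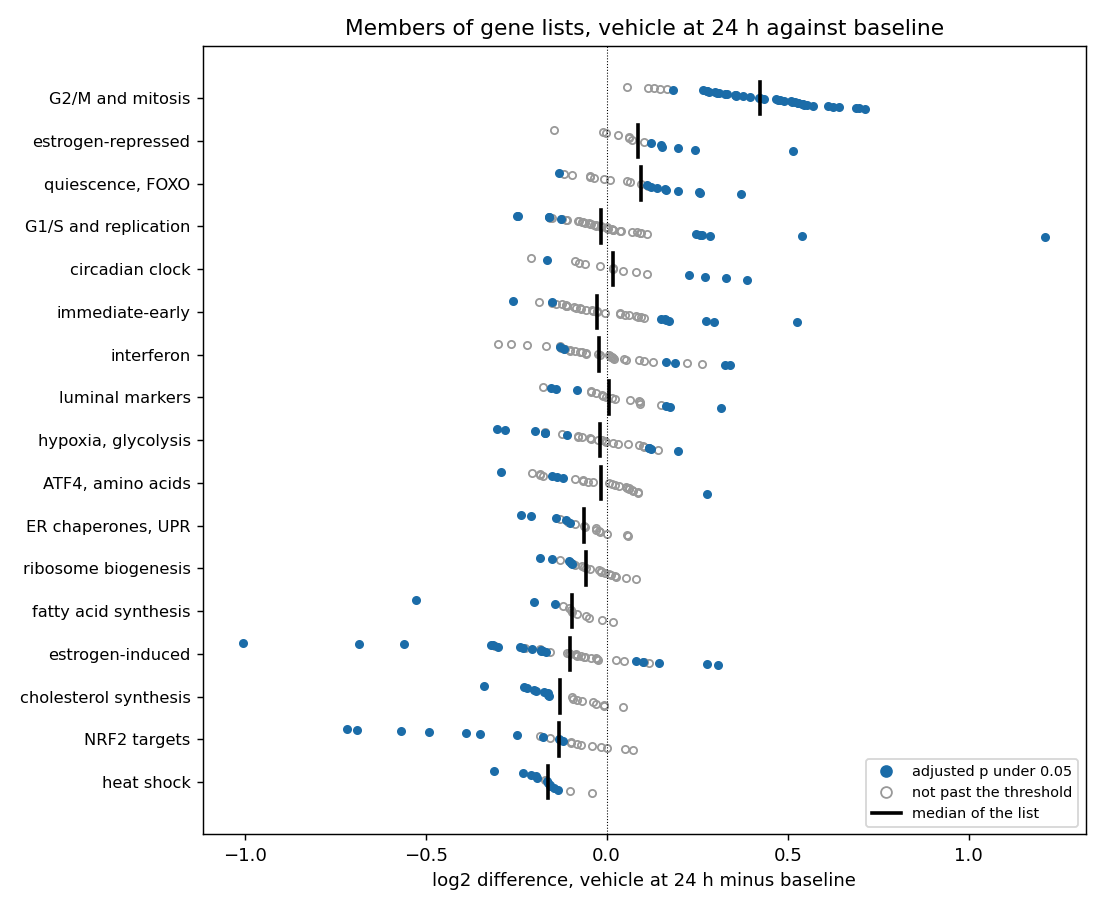
Log2 difference of vehicle at 24 h minus baseline (x axis) for each measured member of 17 gene lists (rows). Filled points had an adjusted p under 0.05, open points did not, and black bars are list medians, which run from 0.42 for G2/M and mitosis to -0.16 for heat shock.

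Subgroups by role, here and below, were chosen after values were seen, so their counts only describe the genes. Medians were 0.42 for kinetochore and checkpoint genes, 0.48 for spindle genes, 0.47 for genes of chromosome structure, separation and cytokinesis and 0.31 for regulators of entry. The largest difference within the list was that of NDC80. NDC80, which fastens microtubules to the kinetochore, had log2 values of 7.98, 8.08, 7.91 and 7.99 in vehicle at 24 h, against 7.16, 7.35, 7.30 and 7.30 at baseline. The lowest vehicle array lay above the highest baseline array, and NDC80 rose by 0.71 ± 0.06 (limma SE; adjusted p = 9.8e-08). SPC25, another subunit of the same NDC80 complex, rose by 0.77 ± 0.06, with levels of 7.25 to 7.41 in vehicle at 24 h and 6.40 to 6.71 at baseline. MAD2L1, which holds the spindle checkpoint, rose by 0.18 ± 0.04. Of 9 kinetochore and checkpoint genes, 8 were higher. CDC20, the activator that the checkpoint restrains, did not pass, at 0.17 ± 0.07 (adjusted p = 0.13).

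All 13 spindle motors and microtubule-binding genes were higher, with differences between 0.28 and 0.70. NUSAP1, which bundles spindle microtubules, had 10.56, 10.56, 10.63 and 10.63 in vehicle at 24 h, against 9.82, 9.95, 9.94 and 9.94 at baseline. The groups were separate, the difference was 0.69 ± 0.04 (adjusted p = 3.4e-10, limma), and both of its probe sets were called. DLGAP5, a spindle assembly factor, rose by 0.70 ± 0.06. KIF23, the motor of the central spindle, rose by 0.62 ± 0.04 with 8.58 to 8.66 in vehicle at 24 h and 7.86 to 8.06 at baseline. ASPM, which acts at the spindle poles, rose by 0.48 ± 0.04. KIF15, a spindle kinesin outside the list, rose by 0.79 ± 0.08.

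Regulators of entry were higher in 9 of 12 cases. CDK1, the kinase that triggers mitosis, had 11.58, 11.63, 11.53 and 11.48 in vehicle at 24 h, against 11.02, 11.08, 11.07 and 11.09 at baseline. CDK1 rose by 0.49 ± 0.04 (adjusted p = 5e-08, limma), without overlap and in all 3 of its probe sets. AURKB, the kinase of the chromosomal passenger complex, rose by 0.61 ± 0.06. PLK1, another mitotic kinase, did not pass, at 0.12 ± 0.05 (adjusted p = 0.12), and passed without array A of vehicle at 24 h, at 0.15 with an adjusted p of 0.039. The CDK-binding proteins CKS1B and CKS2 did not pass either, at 0.06 ± 0.03 and 0.15 ± 0.06. Of 9 genes of chromosome structure, separation and cytokinesis, 8 were higher. ESPL1, the separase that cuts cohesin, rose by 0.64 ± 0.06 and the proliferation marker MKI67 rose by 0.52 ± 0.06, in all 4 of its probe sets. ECT2, which starts the cleavage furrow, did not pass, at 0.13 ± 0.06.

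S phase genes did not move as a block. Of 43 genes of S phase entry and replication, 6 were higher and 5 were lower, against 7.55% and 4.37% of all genes. The other 32 did not pass, and the median was -0.02. All 4 genes of nucleotide supply, a subgroup chosen after values were seen, were higher. RRM2, the regulated subunit of ribonucleotide reductase, had the largest increase of any gene, with 10.15, 10.28, 10.32 and 10.32 in vehicle at 24 h, against 8.88, 9.06, 9.23 and 9.06 at baseline. Its lowest vehicle array lay well above the highest baseline array, and the difference was 1.21 ± 0.06, or 2.32-fold (adjusted p = 5.6e-11, limma). TYMS, which makes thymidylate, rose by 0.54 ± 0.04, the second reductase subunit RRM1 by 0.29 ± 0.02 and the thymidine kinase TK1 by 0.26 ± 0.05. TYMS and RRM1 were each called in 1 of 2 probe sets.

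The MCM helicase, which unwinds DNA at origins, did not follow. None of its 6 subunits was higher, and 4 were lower, against 4.37% of all genes. The subunits were picked out after their values were seen, so this count is a description and not a test. MCM5 had 7.95, 8.08, 8.17 and 8.07 in vehicle at 24 h, against 8.27, 8.37, 8.34 and 8.29 at baseline, and fell by 0.25 ± 0.05 without overlap (adjusted p = 0.0012, limma). MCM6 fell by 0.16 ± 0.03, MCM3 by 0.16 ± 0.05 and MCM4 by 0.13 ± 0.03, with MCM5 called in 1 of 2 probe sets and MCM4 in 1 of 4. MCM2 and MCM7 did not pass, at -0.06 ± 0.06 and 0.00 ± 0.04. CDC6, which loads the helicase, fell by 0.24 ± 0.07 (adjusted p = 0.036). Several of these calls rested on single arrays. MCM3 lost its call without any 1 of vehicle arrays A and B and baseline arrays B and C, MCM4 without vehicle array B or baseline arrays B or C, and CDC6 without vehicle arrays A, B or C or baseline arrays B or C, with adjusted p up to 0.11, 0.075 and 0.12. In a fit of only the 8 arrays compared, all 3 lost the call, with adjusted p of 0.1 for MCM3, 0.078 for MCM4 and 0.065 for CDC6 (limma), and with the replicate block MCM3 lost it too (adjusted p = 0.062). Elsewhere in the list, CCNE2, a cyclin of S phase entry, rose by 0.25 ± 0.04 and the clamp loader subunit RFC3 by 0.26 ± 0.05.

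**Figure D2:**
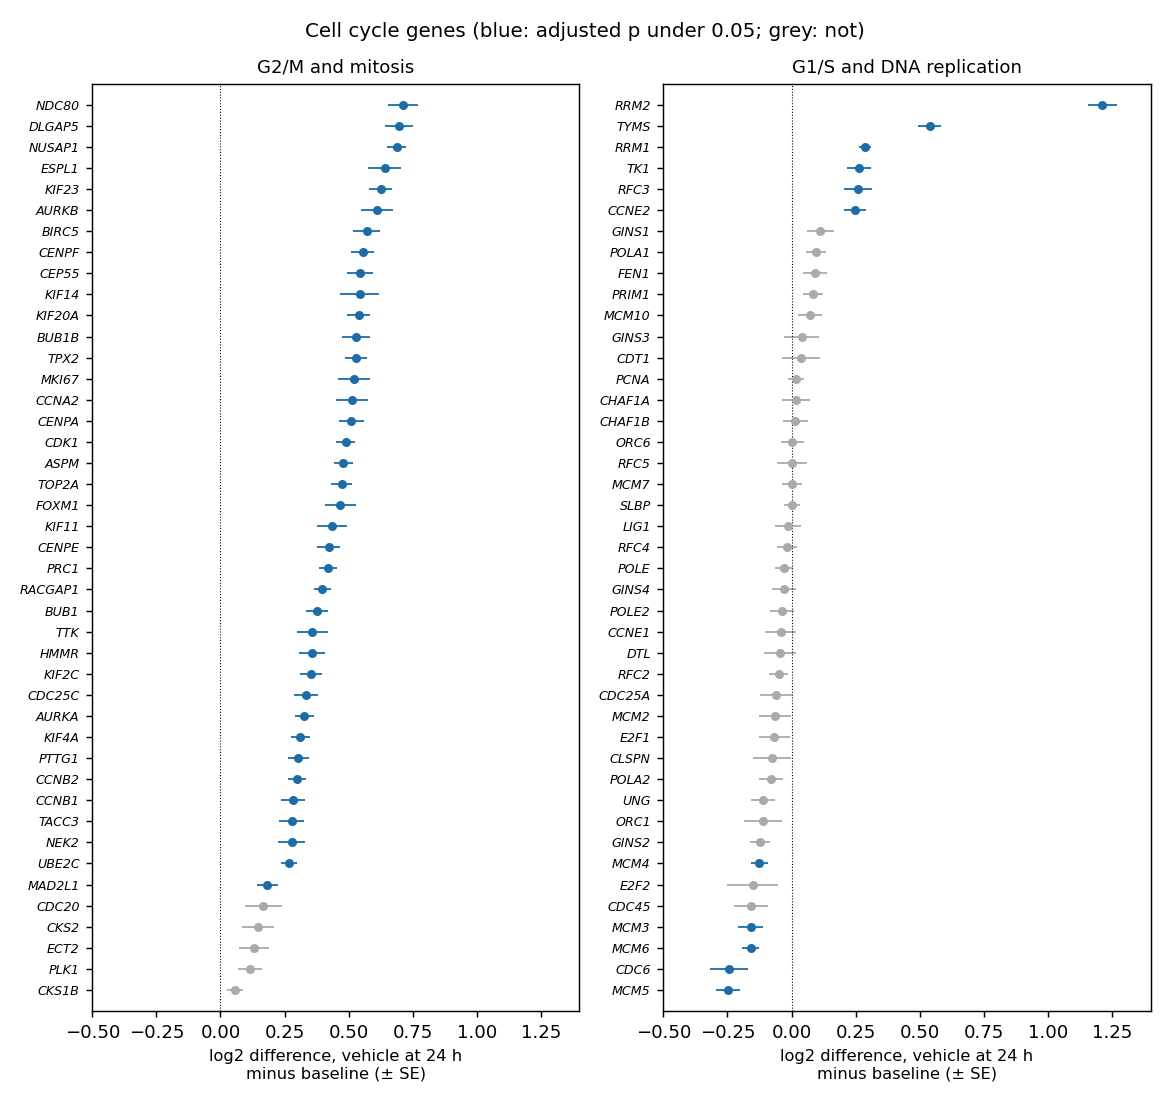
Log2 difference of vehicle at 24 h minus baseline (x axis, with limma SE) for every measured gene of the G2/M list (left) and of the S phase list (right), sorted by difference. Blue points had an adjusted p under 0.05; all 43 on the left lie above 0, 38 of them blue, and on the right RRM2 stands apart at 1.21 while MCM5 and CDC6 are at the low end.

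The mitotic genes were also measured after 3 h. After 3 h in vehicle, 1 of the 43 mitotic genes was higher than baseline and 13 were lower, against 9.95% and 10.1% of all genes. Vehicle at 24 h against vehicle at 3 h had 40 higher and none lower, against 16.1% of all genes higher and 12.8% lower. These comparisons share arrays, and each is given as its own count. RRM2 was at 9.61 to 9.76 after 3 h, which was 0.63 ± 0.06 above baseline (adjusted p = 1.7e-07, limma). MCM6 was 0.25 and MCM5 0.18 above baseline at 3 h. Under E2 for 24 h, 37 of the mitotic and 41 of the S phase genes were higher than with vehicle for 24 h, against 21.5% of all genes. MCM6 was 1.01 higher and MCM5 1.15 higher with E2, RRM2 1.15 and NUSAP1 0.36. For KIF23 the difference was -0.10 (adjusted p = 0.075, limma).

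Genes that estrogen activates in breast cancer lines were mostly lower or did not pass. Of 39 measured, 13 were lower, 5 were higher and 21 did not pass, against 4.37% lower and 7.55% higher among all genes, and the median was -0.10. GREB1, an estrogen receptor cofactor and one of its best-known targets, had 9.55, 9.51, 9.42 and 9.44 in vehicle at 24 h, against 10.27, 10.64, 10.52 and 10.50 at baseline. Every vehicle array lay below every baseline array, and GREB1 fell by 1.00 ± 0.07 (adjusted p = 1.3e-08, limma), in 2 of its 3 probe sets. In the E2 arrays at 24 h it averaged 11.89 ± 0.05 (SD, n = 4), 2.41 above vehicle.

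RAB31, a GTPase of vesicle transport, had 9.79, 9.96, 9.87 and 9.94 in vehicle at 24 h, against 10.44, 10.63, 10.62 and 10.60 at baseline, and fell by 0.68 ± 0.05 in all 3 probe sets. IGFBP4, which binds insulin-like growth factors, fell by 0.56 ± 0.07, with 8.62 to 8.83 in vehicle at 24 h and 9.18 to 9.33 at baseline. NHERF1, a scaffold under the cell membrane, fell by 0.32 ± 0.04. All 3 were higher with E2 than with vehicle at 24 h, RAB31 by 1.69, IGFBP4 by 1.76 and NHERF1 by 1.16. CCND1, the cyclin that drives entry into S phase, fell by 0.18 ± 0.05 in both probe sets (adjusted p = 0.036, limma). That call was lost without any of 6 of the 8 arrays (vehicle A, B or C, baseline B, C or D), with adjusted p up to 0.11.

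Several canonical estrogen targets were not lower. TFF1, a secreted trefoil peptide, had 13.57, 13.57, 13.57 and 13.59 in vehicle at 24 h, against 13.51, 13.49, 13.52 and 13.46 at baseline, a rise of 0.08 ± 0.02 (adjusted p = 0.025, limma) that was lost without vehicle arrays B or D or baseline arrays B or D (adjusted p up to 0.086). It was also lost with each array centred on its median (adjusted p = 0.1) and in a fit of only the 8 arrays compared (adjusted p = 0.093). TFF3, a related peptide, rose by 0.14 ± 0.02, and STC2, a secreted stanniocalcin, rose by 0.28 ± 0.03. At 24 h the difference of E2 from vehicle was 0.14 for TFF1 and 0.03 for TFF3 (adjusted p = 0.41, limma). For STC2 it was -0.64, so STC2 was lower with E2 at that time. PGR, the progesterone receptor, was dim at 4.27 ± 0.16 in vehicle at 24 h and 4.22 ± 0.22 at baseline (SD, n = 4 each) and did not pass (adjusted p = 0.87). MYC, a growth-promoting transcription factor, was at 7.71 ± 0.03 in vehicle at 24 h and 7.82 ± 0.18 at baseline and did not pass either (adjusted p = 0.5). PGR and MYC were 0.72 and 1.02 higher with E2 than with vehicle at 24 h.

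PDZK1, a scaffold protein, had 7.34, 7.36, 7.33 and 7.37 in vehicle at 24 h, against 7.21, 7.94, 7.92 and 7.56 at baseline. The groups overlapped through baseline array A, and the difference of -0.31 ± 0.11 did not pass (adjusted p = 0.076, limma). Without that array it was -0.46 with an adjusted p of 0.00075. PDZK1 was 4.21 higher with E2 than with vehicle at 24 h. WNT4, a secreted WNT ligand that E2 raised by 1.11 over vehicle at 24 h, was at 7.19 ± 0.08 in vehicle at 24 h and 7.32 ± 0.07 at baseline and did not pass (adjusted p = 0.13). Receptor transcript itself differed by 0.02 ± 0.03 (ESR1, adjusted p = 0.67), although 1 of its 9 probe sets was called lower.

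Genes that estrogen holds down were higher or did not pass. Of 14 measured, 6 were higher, none was lower and 8 did not pass, against 7.55% of all genes higher, with a median of 0.09. With E2 10 of the 14 were lower than in vehicle at 24 h, against 24.2% of all genes. BLNK, an adaptor of lymphocyte signalling, had 9.08, 9.06, 9.19 and 9.10 in vehicle at 24 h, against 8.62, 8.57, 8.59 and 8.58 at baseline, a rise of 0.51 ± 0.07 without overlap (adjusted p = 6.4e-05, limma). BCAS1 rose by 0.24 ± 0.03, the stress-responsive NDRG1 by 0.20 ± 0.03 and the receptor ligand EFNA1 by 0.15 ± 0.03. ERBB2, the HER2 receptor, rose by 0.15 ± 0.04 (adjusted p = 0.012), with 1 of its 2 probe sets called and the arrays of the groups overlapping, and the call was lost in a fit of only the 8 arrays compared (adjusted p = 0.055, limma). E2 minus vehicle at 24 h was -1.48 for BCAS1, -1.34 for EFNA1, -1.13 for NDRG1, -0.97 for ERBB2 and -0.71 for BLNK. The E2 and the baseline comparison share the 4 vehicle arrays, so the values are not independent.

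HDC and ATRNL1, outside the lists, were among the genes with the largest changes and also differed between E2 and vehicle at 24 h. HDC, which makes histamine, had 9.68, 9.63, 9.70 and 9.72 in vehicle at 24 h, against 8.89, 8.86, 8.93 and 8.89 at baseline, a rise of 0.79 ± 0.04 (adjusted p = 3.4e-10, limma). E2 arrays at 24 h were at 7.08 to 7.17. ATRNL1, an attractin-like membrane protein, had 6.21, 6.10, 6.11 and 6.41 in vehicle at 24 h, against 7.17, 7.41, 7.39 and 7.02 at baseline, and fell by 1.04 ± 0.08. E2 arrays at 24 h were at 8.59 to 8.81.

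**Figure D3:**
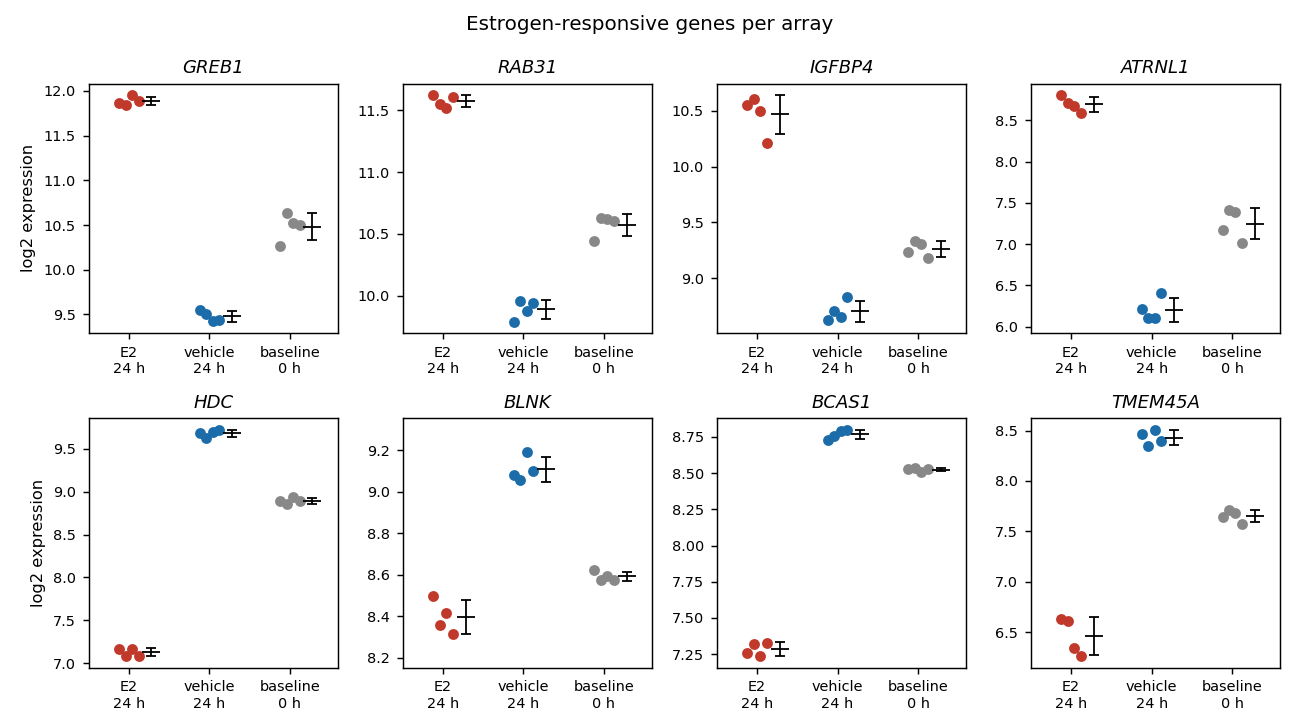
Log2 expression (y axis, a separate scale in each panel) of 8 genes on each array given E2 for 24 h (red), vehicle for 24 h (blue) or taken at baseline (grey), with mean and SD of 4 arrays. In GREB1, RAB31, IGFBP4 and ATRNL1 the vehicle arrays are the lowest, and in HDC, BLNK, BCAS1 and TMEM45A they are the highest.

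Genes of the oxidative stress factor NRF2 were lower or did not pass. Of 22 measured, none was higher, 10 were lower and 12 did not pass, against 7.55% and 4.37% of all genes, with a median of -0.13. The 4 aldo-keto reductases, which reduce aldehydes, ketones and steroids, led them. AKR1C2 had 12.02, 12.07, 12.08 and 12.05 in vehicle at 24 h, against 12.75, 12.80, 12.76 and 12.77 at baseline, and fell by 0.72 ± 0.03 (adjusted p = 3e-12, limma) in both probe sets. AKR1C1 fell by 0.69 ± 0.03, AKR1B10 by 0.57 ± 0.05 and AKR1C3 by 0.49 ± 0.03, all without overlap. The probe sets of AKR1C1 and AKR1C2 are marked as open to cross-hybridisation, and these near-identical genes may share signal.

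NQO1, a quinone reductase, had 12.15, 12.20, 12.22 and 12.20 in vehicle at 24 h, against 12.59, 12.56, 12.58 and 12.59 at baseline. The groups were separate and NQO1 fell by 0.39 ± 0.02 in all 3 probe sets (adjusted p = 5.8e-09, limma). TKT, a pentose phosphate enzyme that helps to supply NADPH, fell by 0.35 ± 0.03, and HMOX1, which breaks down heme, fell by 0.25 ± 0.05. GCLC, the catalytic subunit of glutathione synthesis, fell by 0.13 ± 0.03, in 1 of 2 probe sets. NFE2L2, the gene of NRF2 itself, did not pass, at 0.05 ± 0.04 (adjusted p = 0.38). At 3 h in vehicle 8 of the 22 genes had been higher than baseline and 1 lower, against 9.95% and 10.1% of all genes. HMOX1 was 0.67 and GCLC 0.23 above baseline at 3 h. With E2 for 24 h, 14 of the 22 were lower than with vehicle, against 24.2% of all genes, at differences of -0.85 for NQO1 and -0.80 for AKR1C3.

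CYP1A2, a cytochrome of drug metabolism, had the largest decrease of any gene. It had 8.38, 8.41, 8.55 and 8.39 in vehicle at 24 h, against 10.37, 10.26, 10.26 and 10.26 at baseline. CYP1A2 thus fell by 1.85 ± 0.05, or 3.62-fold, with all arrays separate (adjusted p = 6.2e-14, limma). Its probe set is marked as open to cross-hybridisation, and both of its probe sets were called lower. After 3 h in vehicle it was at 9.92 to 10.06, and with E2 for 24 h it averaged 8.54, which was 0.10 ± 0.05 from vehicle (adjusted p = 0.14). Among 8 genes of the aryl hydrocarbon receptor, 3 were lower and none was higher, against 4.37% and 7.55% of all genes. The lower genes were CYP1A2, NQO1 and CYP1B1, an estrogen-hydroxylating cytochrome that fell by 0.43 ± 0.04. NQO1 is also counted among the NRF2 genes above. CYP1A1, the best-known target of that receptor, was at 6.17 ± 0.07 in vehicle at 24 h and 6.19 ± 0.21 at baseline (SD, n = 4 each) and did not pass (adjusted p = 0.86).

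**Figure D4:**
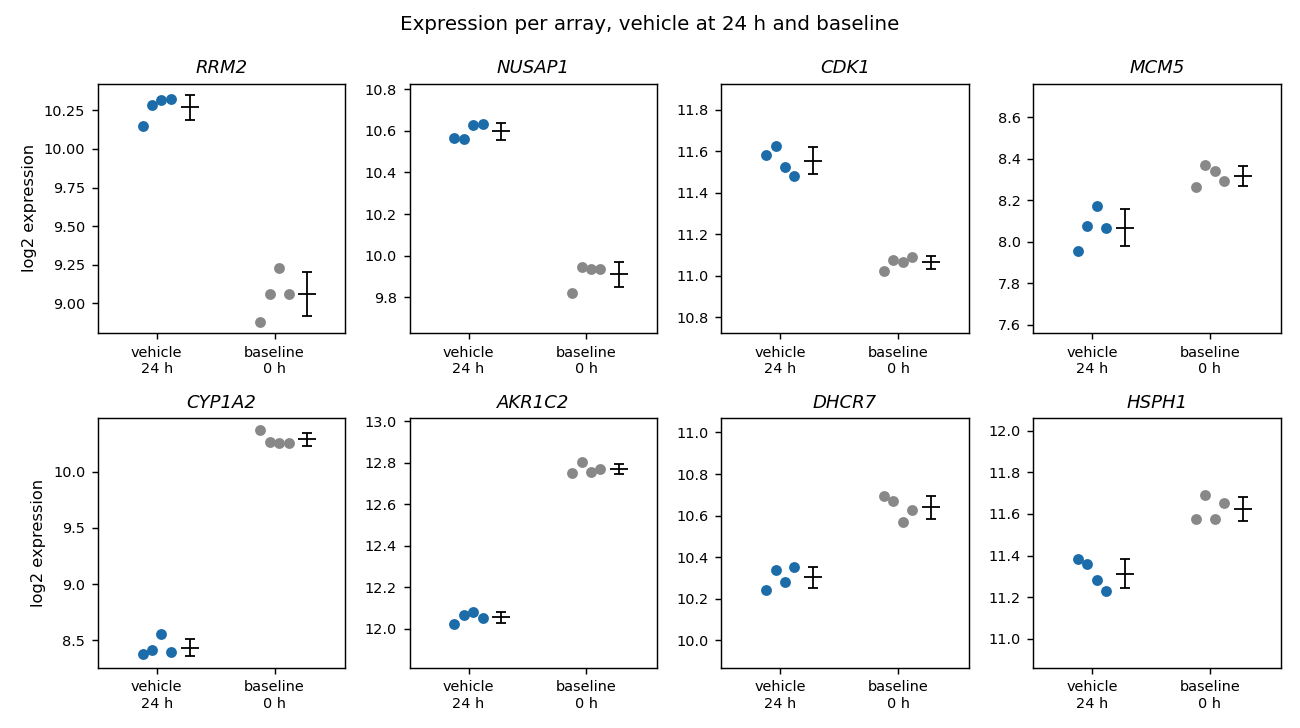
Log2 expression (y axis, a separate scale in each panel) of 8 genes on each array of vehicle at 24 h (blue) and baseline (grey), with mean and SD of 4 arrays. RRM2, NUSAP1 and CDK1 were higher in vehicle at 24 h, and MCM5, CYP1A2, AKR1C2, DHCR7 and HSPH1 were lower, with no overlap of the groups in any panel.

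Genes of lipid synthesis were lower or did not pass. Of 18 cholesterol synthesis genes, none was higher, 9 were lower and 9 did not pass, against 4.37% of all genes lower, with a median of -0.13. DHCR7, the last enzyme of the pathway, had 10.24, 10.34, 10.28 and 10.35 in vehicle at 24 h, against 10.69, 10.67, 10.57 and 10.63 at baseline, and fell by 0.34 ± 0.04 (adjusted p = 8.3e-06, limma). ACAT2 fell by 0.23 ± 0.03, HMGCS1, an early enzyme of the pathway, by 0.22 ± 0.05, and MSMO1 and SQLE, which act on its sterol and squalene steps, by 0.20 ± 0.03 and 0.20 ± 0.03. At 3 h in vehicle 13 of the 18 had been higher than baseline and none lower, against 9.95% and 10.1% of all genes, with HMGCS1 0.56 and MSMO1 0.49 higher. Relative to vehicle at 3 h, 13 of them were lower at 24 h, against 12.8% of all genes.

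Of 12 genes of fatty acid synthesis, 3 were lower and none was higher, against 4.37% and 7.55% of all genes. ELOVL6, which elongates palmitate, had 9.32, 9.25, 9.36 and 9.28 in vehicle at 24 h, against 9.75, 9.92, 9.88 and 9.77 at baseline, and fell by 0.53 ± 0.04 in both probe sets (adjusted p = 1.7e-08, limma). SCD, the desaturase, fell by 0.14 ± 0.03 and ACACA, the carboxylase that makes malonyl-CoA, by 0.20 ± 0.03. Under E2 for 24 h, ELOVL6 was 1.06 higher and SCD 0.43 higher than with vehicle, and the difference for ACACA was -0.20. Among 8 genes of sterol export, 2 were higher, against 7.55% of all genes. One was ABCG1, a sterol exporter, by 0.19 ± 0.05 (adjusted p = 0.017, limma), which was lost without baseline array C (0.16, adjusted p = 0.064). The other was MYLIP, an LDL receptor ligase and not an exporter, by 0.13 ± 0.04 (adjusted p = 0.035, limma). That call was lost without any 1 of 7 of the 8 arrays, and also with median centring or repeated quantile normalization.

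Chaperones of the heat shock response were lower in 11 of 14 cases, with none higher, against 4.37% of all genes lower, and their median was -0.16. HSPH1, a large chaperone that exchanges the nucleotide of HSP70, had 11.38, 11.36, 11.28 and 11.23 in vehicle at 24 h, against 11.57, 11.69, 11.58 and 11.65 at baseline. The groups did not overlap and HSPH1 fell by 0.31 ± 0.05 (adjusted p = 0.00045, limma). FKBP4, a partner of steroid receptors in the HSP90 complex, fell by 0.23 ± 0.03. The mitochondrial chaperonins HSPE1 and HSPD1 fell by 0.21 ± 0.03 and 0.15 ± 0.02, the small chaperone HSPB1 by 0.20 ± 0.03 and HSP90AA1 by 0.16 ± 0.03. E2 minus vehicle at 24 h was 0.70 for FKBP4 and -0.39 for HSPH1. Of 17 chaperones and stress genes of the endoplasmic reticulum, 5 were lower and none was higher, and of 23 genes of ribosome synthesis, 5 were lower and none was higher, beside the same 4.37% of all genes.

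Of 21 genes of quiescence and FOXO signalling, 9 were higher and 1 was lower, against 7.55% and 4.37% of all genes, with a median of 0.09. INSR, the insulin receptor, had 10.87, 10.77, 10.85 and 10.88 in vehicle at 24 h, against 10.56, 10.45, 10.44 and 10.44 at baseline, a rise of 0.37 ± 0.03 in both probe sets (adjusted p = 2.8e-07, limma). CDKN1A, the CDK inhibitor p21, rose by 0.26 ± 0.04, with 9.70 to 9.87 in vehicle at 24 h and 9.45 to 9.56 at baseline, and had stood at 10.04 to 10.07 after 3 h in vehicle. GADD45A, a growth arrest gene, rose by 0.16 ± 0.04. IRS2, an adaptor below the insulin receptor, was the 1 that fell, by 0.13 ± 0.03, in 1 of 2 probe sets.

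Of 15 clock genes, 4 were higher and 1 was lower, against 7.55% and 4.37% of all genes, so that the 1 lower is near the share of all genes. PER3 rose by 0.33 ± 0.03, with 10.04 to 10.12 in vehicle at 24 h and 9.66 to 9.82 at baseline. PER2, the second period gene called, rose by 0.27 ± 0.04 in 1 of 2 probe sets, and HLF, an output factor of the clock, rose by 0.39 ± 0.08 from a probe set open to cross-hybridisation. BMAL1, the activator that the period proteins oppose, fell by 0.17 ± 0.03 in both probe sets (adjusted p = 0.0019, limma). The hour of day at harvest is not given in the sources used here.

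JUN, an AP-1 subunit, led the immediate-early genes, of which 7 of 34 were higher and 2 lower, against 7.55% and 4.37% of all genes; the 2 lower are near that share. It had 10.41, 10.29, 10.41 and 10.19 in vehicle at 24 h, against 9.79, 9.77, 9.82 and 9.81 at baseline, a rise of 0.53 ± 0.05 in all 4 probe sets (adjusted p = 2.2e-06, limma), the one used being open to cross-hybridisation. Of 20 luminal markers, 3 were higher and 3 lower, beside the same shares of all genes. ELF3, an epithelial transcription factor, rose by 0.32 ± 0.04, the mucin MUC1 by 0.17 ± 0.04 and the keratin KRT7, in 1 of 2 probe sets, by 0.16 ± 0.04. KRT8, another keratin, fell by 0.14 ± 0.03. CDH1, the E-cadherin gene, was at 9.11 ± 0.06 in vehicle at 24 h and 8.96 ± 0.06 at baseline (SD, n = 4 each) and lay at the threshold (adjusted p = 0.05). It passed without vehicle array B or baseline array C, with an adjusted p down to 0.034.

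In the other lists the calls ran in both directions or were few, against 7.55% of all genes higher and 4.37% lower. Interferon-stimulated genes were higher in 4 and lower in 2 of 36, and genes of hypoxia and glycolysis in 4 and 6 of 28. The glycolytic enzymes PKM and ENO1 fell by 0.28 ± 0.04 and 0.20 ± 0.03, in 1 of 2 and 2 of 3 probe sets, and P4HA2, a collagen hydroxylase, fell by 0.30 ± 0.03. Amino acid and ATF4 genes were higher in 1 and lower in 4 of 26, receptor tyrosine kinase genes in 3 and 5 of 26, and lysosome genes in 3 and 1 of 18. Some lists share genes, so their counts are not separate. STC2, the higher ATF4 gene, is also counted as estrogen-induced. INSR is in both the receptor kinase and the FOXO list, and NDRG1 in both the hypoxia and the estrogen-repressed list. TGF-beta and BMP genes were higher in 2 and lower in 1 of 22. BAMBI, a decoy receptor of that pathway, rose by 0.42 ± 0.07 (adjusted p = 0.00027, limma), its signal carrier SMAD3 rose by 0.36 ± 0.06 in 1 of 4 probe sets, and its repressor SKI fell by 0.39 ± 0.10 in 1 of 2 probe sets. WNT genes were higher in 1 of 22, tRNA synthetases lower in 1 of 16, the BCL2 family higher in 1 of 14, receptor coregulators higher in 1 of 12 and adhesion genes higher in 2 of 21. None of 6 basal markers passed, and 1 of 16 stromal and 1 of 14 immune and endothelial markers were lower.

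Several of the largest increases fell outside the lists. TMEM45A, a membrane protein, rose by 0.78 ± 0.08, with 8.34 to 8.51 in vehicle at 24 h and 7.57 to 7.71 at baseline. S100A8, a calcium-binding protein of inflammation, had 9.50, 9.68, 9.69 and 9.66 in vehicle at 24 h, against 8.90, 8.95, 8.93 and 8.85 at baseline, a rise of 0.72 ± 0.05 (adjusted p = 9.4e-09, limma). S100A8 was also 1.80 higher with E2 than with vehicle at 24 h, while the same difference for TMEM45A was -1.97. ALB, the gene of serum albumin, rose by 0.74 ± 0.08, with 1 of its 3 probe sets called higher and 1 lower. NEIL3, a DNA glycosylase, rose by 0.71 ± 0.07 and PBK, a mitotic kinase, by 0.71 ± 0.03.

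The steroid reductase AKR1D1, the urea transporter SLC14A1, the glucuronosyltransferase UGT2B4 and the chloride exchanger SLC26A3 rose by 0.77, 0.73, 0.73 and 0.70, all dim in both groups. Among the decreases, SPINK4, a protease inhibitor, had 7.55, 7.55, 7.46 and 7.52 in vehicle at 24 h, against 8.22, 8.28, 8.38 and 8.20 at baseline, and fell by 0.75 ± 0.05 (adjusted p = 2.1e-09, limma). DHRS2, a short-chain dehydrogenase, fell by 0.55 ± 0.06, and ADCY1, an adenylyl cyclase, by 0.53 ± 0.05, in 1 of 3 probe sets. S100P, a calcium-binding protein, fell by 0.56 ± 0.06 and TEX14, named for its role in germ cell bridges, by 0.60 ± 0.08. DOCK10, an exchange factor for small GTPases, fell by 0.57 ± 0.11, dim in both groups and in 1 of 2 probe sets. Under E2 for 24 h, DOCK10, DHRS2, ADCY1 and SPINK4 were higher than with vehicle by 2.67, 2.70, 1.89 and 1.78.

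The vehicle arrays at 3 h place these values in time. After 3 h in vehicle, 2393 genes differed from baseline (20%) and 122 reached 1.5-fold, against 1426 and 37 after 24 h. Between vehicle at 24 h and at 3 h, 3458 genes differed (28.9%). Of the genes whose step from 3 h to 24 h ran opposite to that from baseline to 3 h, those with the widest later step are given. CYP1B1 had 10.45, 10.50, 10.60 and 10.57 at baseline, 12.66, 12.72, 12.54 and 12.62 after 3 h and 10.04, 10.13, 10.09 and 10.14 after 24 h. It was 2.11 ± 0.04 above baseline at 3 h and -0.43 ± 0.04 from it at 24 h, where its arrays lay below all baseline arrays.

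ARAP2, a regulator of small GTPases, was 2.23 above baseline at 3 h and -0.05 ± 0.14 from it at 24 h (adjusted p = 0.85, limma), dim at both ends. SLC7A11, the cystine transporter, was 1.59 above at 3 h and -0.18 ± 0.09 from baseline at 24 h. ID3, an inhibitor of basic helix-loop-helix factors, was 1.48 above at 3 h and 0.05 ± 0.07 from baseline at 24 h. PHLDA2, an imprinted growth regulator, was 1.49 above at 3 h and -0.28 ± 0.08 from baseline at 24 h (adjusted p = 0.035). That last call was lost without any 1 of 7 of the 8 arrays, baseline A excepted (adjusted p up to 0.093), and with the replicate block (adjusted p = 0.057). In the other direction, the trafficking adaptor STON1 had 9.21 to 9.25 at baseline, 8.54 to 8.62 after 3 h and 9.68 to 9.88 after 24 h. NDP, the WNT-type ligand norrin, was at -0.70 from baseline at 3 h and 0.58 ± 0.13 above it at 24 h. TNFSF10, the death ligand TRAIL, was at -0.74 from baseline at 3 h and 0.43 ± 0.09 above at 24 h, from a probe set open to cross-hybridisation.

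**Figure D5:**
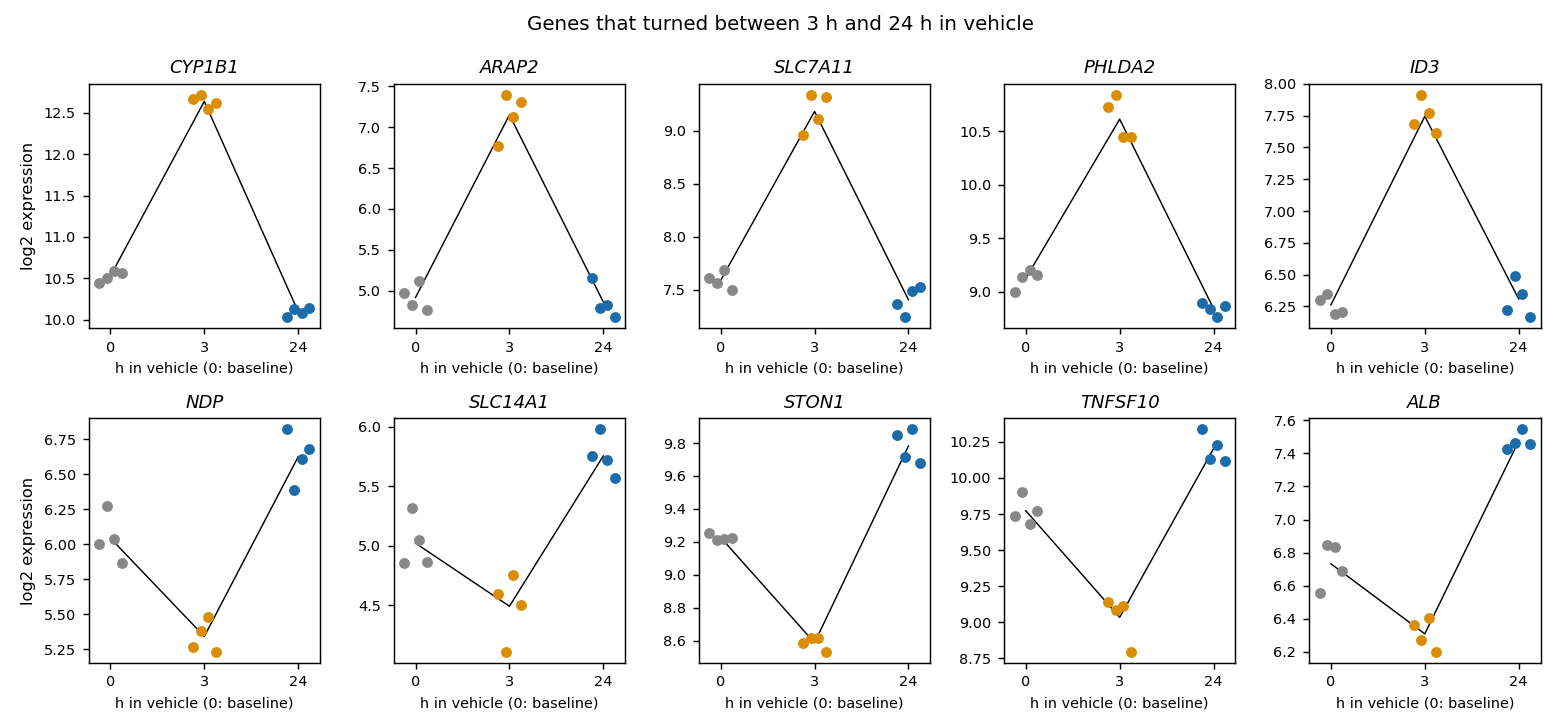
Log2 expression (y axis, a separate scale in each panel) of 10 genes at baseline (0 h, grey), after 3 h (orange) and after 24 h in vehicle (blue), 1 point per array, with lines through the means of 4 arrays. The 3 times are drawn evenly spaced and not to scale; the upper genes peak at 3 h and the lower genes are lowest at 3 h.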

How the data were processed

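Each array's deposited table gives log2 values, which the authors obtained with RMA (affy), per the submitters' processing notes. Software versions are not given in the sources used here. RMA aligns the distributions of all arrays, so a change in total RNA per cell would not appear.

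Of 22277 probe sets, 62 controls were left out, and the platform annotation gave 1 symbol for 19064. Each of 11963 genes was read from its brightest probe set on average over the 20 arrays, and no dim genes were removed. The fit, on all 20 arrays, used limma 3.58.1 under R 4.3.3 (lmFit, eBayes, two-sided, a mean per group, no block), with Benjamini-Hochberg adjustment over all genes and a threshold of 0.05. Errors after ± are limma standard errors unless SD is named. In simulated data for vehicle at 24 h against baseline, over 11963 genes, 66% of 50 genes with a 1.25-fold change were recovered, and 100% of the 50 genes at each of 1.5-fold, 2-fold and 4-fold. The simulation called 190 genes, against 1426 in the data. Its cutoff after adjustment was therefore stricter, and the shares need not hold for the data.

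Groups came from the titles. The labels name no pairing by the letters A to D, and with 4 arrays per group the values cannot settle it. Same-letter correlations of deviations ran from -0.25 to -0.01 for vehicle at 24 h and baseline. They ran from -0.12 to 0.03 for vehicle at 3 h and baseline, and from -0.02 to 0.13 for vehicle at 24 h and at 3 h. In that last pair, 3 of the 4 arrays at 24 h correlated best with the array of their own letter. The arrays compared, the 30 lists and the rule for naming genes were chosen with earlier results of these data known. The rule takes the 15 largest increases and decreases among called genes with separate groups, up to 4 called and 3 uncalled members of each list by p, 10 genes always named, and the 5 largest reversals in each direction between 3 h and 24 h. Genes named beyond it were chosen after their values were seen: AURKB, ESPL1, MKI67, MAD2L1, CKS1B, ECT2, TK1, RFC3, the MCM subunits, CDC6, MYBL1, TFF3, ERBB2, TKT, HMOX1, GCLC, CYP1A1, NFE2L2, HMGCS1, HSPH1 and HSP90AA1, and the subgroups by role. Alternatives covered the arrays in the fit, the block, scaling, dim genes, probe set choice, variance prior, array weights, thresholds and single arrays left out. Of 3 control transcripts for RNA quality, 1 is not reported here.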

Additional observations from a re-analysis of the deposited data

Results flagged for a closer look

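In 14 of 262 pairs of a named gene and a group, 1 array stood far from the other 3, where chance marks about 1 in 20. At baseline, array A stood apart in 6 of them: CYP1A2 at 10.37 and RAB31 at 10.44, NUSAP1 at 9.82, RRM1 at 10.84, INSR at 10.56 and MUC1 at 12.01. Baseline array B stood apart for NEIL3 at 7.53 and FKBP4 at 12.28. In vehicle at 24 h, array A stood apart for S100A8 at 9.50, the mitotic activator CDC20 at 7.97 and the LDL receptor ligase MYLIP at 10.80. Vehicle array B stood apart for MCM4 at 8.90, and array D for KIF15 at 8.39 and the transcription factor MYBL1 at 8.02. MYLIP rose by 0.13 ± 0.04 (adjusted p = 0.035, limma), which was lost without any 1 of 7 arrays, vehicle A excepted, with adjusted p up to 0.086, and with each array centred on its median (adjusted p = 0.057) or quantile normalization repeated (adjusted p = 0.1).

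The change from 3 h to 24 h in vehicle ran opposite to the change from baseline to 3 h, both past the threshold in limma, in the genes that follow, which are the 5 with the largest later step in each direction and not all that met this. Vehicle at 24 h minus vehicle at 3 h was 1.28 for NDP, 1.27 for SLC14A1, 1.19 for STON1, 1.17 for TNFSF10 and 1.17 for ALB. It was -1.44 for ID3, -1.77 for PHLDA2, -1.78 for SLC7A11, -2.28 for ARAP2 and -2.54 for CYP1B1. The steps share the arrays at 3 h, and the difference between the steps was not tested beyond their opposite signs.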

How the results depend on the processing

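Whether the letters pair the arrays of vehicle at 24 h and baseline is not known. With the replicate block the count for vehicle at 24 h against baseline was 1410 (896 higher, 514 lower), and no list count moved by over 1.5 times. A threshold of 1.5-fold beside the adjusted p left 37 genes (29 higher, 8 lower), 200 for vehicle at 24 h against 3 h (97 higher, 103 lower) and 122 for vehicle at 3 h against baseline (97 higher, 25 lower). At that threshold the lists held 6 mitotic, 2 NRF2 and 2 estrogen-induced genes, and 0 estrogen-repressed, 0 cholesterol and 0 heat shock genes. At an adjusted p of 0.01 the counts were 784 for vehicle at 24 h against baseline (528 higher, 256 lower) and 1573 for vehicle at 3 h against baseline, 709 of them lower. Centring on medians put the share of higher calls at 53.1% and repeated quantile normalization at 53%, against 63.3%. Leaving out single arrays gave 1111 to 1267 genes (703 to 831 higher, 362 to 487 lower), 3110 to 3268 for vehicle at 24 h against 3 h (1725 to 1852 higher, 1343 to 1501 lower) and 1979 to 2200 for vehicle at 3 h against baseline (1013 to 1132 higher, 936 to 1068 lower). It gave 38 to 39 mitotic, 9 to 12 NRF2, 11 to 14 estrogen-induced, 5 to 6 estrogen-repressed, 8 to 9 cholesterol and 9 to 11 heat shock genes. Of 112 called genes considered for naming, 16 lost the call without 1 array, and 3 of 19 uncalled genes gained it. Over 2219 pairs of a gene and an alternative, 0 reversed and 194 lost the call, 109 of them at settings other than the fold threshold. The cause was not tested. The fit recovered 66% of simulated 1.25-fold changes, in a simulation with fewer changed genes than were called here. That share need not hold for these data, and small changes may be missed.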
